A study of Mus musculus with 8 samples.

Results

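The 10 genes described here mark itch-sensing and related neurons, and were measured in sorted neurons of mouse dorsal root ganglia (DRG). They were chosen by symbol from the deposited gene tables: the Mas-related G protein-coupled receptors Mrgprd, Mrgpra3, Mrgprb4 and Mrgprb5, the cytokine receptor subunits Il31ra and Osmr, the peptide Nppb, and the receptors Cysltr2, Htr1f and Hrh1. All 10 members were found among 22609 gene symbols, and all 20 symbols that begin with Mrgpr were read beside them. DRG are the ganglia beside the spinal cord that hold the cell bodies of sensory neurons. The neurons had been back-labelled with WGA-488, a fluorescent plant lectin injected into hindpaw skin and thigh muscle, sorted by flow cytometry and sequenced with SMART-seq2, a protocol for small amounts of RNA. There were 4 libraries from female and 4 from male C57BL/6J mice, 8 to 12 weeks of age, naive apart from the tracer injection. The females were in estrus, and each sample held 6 ganglia, those of L3 to L5 on both sides, which is the number that 1 mouse has at these levels. The sort took labelled neurons of every kind, so fewer neurons of a type and less RNA per neuron cannot be told apart. P-values measure the spread between these libraries.

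Itch is carried by small unmyelinated DRG neurons that carry receptors for itch-causing substances (pruritogens). Mrgprd marks the nonpeptidergic skin afferents, which respond to beta-alanine. Mrgpra3, the chloroquine receptor, marks a separate set of itch fibres, and Mrgprb4 marks fibres tuned to stroking. A further set makes natriuretic polypeptide B (Nppb), the peptide that passes itch to the spinal cord, and carries the interleukin 31 receptor, a pair of Il31ra and Osmr chains, together with Cysltr2, a leukotriene receptor, and Htr1f, a serotonin receptor. Hrh1 encodes the histamine receptor that antihistamines block.

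Several Mrgpr genes are near copies of each other, so the sequence that a short read carries decides which gene it can be counted for. Mrgpra3 (chr7:54844320-54856742, minus strand, build NCBIM37, also called mm9), Mrgprb5 (chr7:55423353-55424384, minus strand) and Mrgprb4 (chr7:55453583-55454548, minus strand) lie in 1 cluster on chromosome 7, while Mrgprd (chr7:152500740-152509964, plus strand) lies at the far end of that chromosome. The following 50-base windows, the length of the reads, come from the same place in the coding sequence of 8 Mrgpr genes and are shown because the window of Mrgpra3 has an exact copy in Mrgpra4. They are written 5′ to 3′ on the strand of the gene, with bases that differ from Mrgpra3 in capitals.
Mrgpra3, chr7:54845118-54845167: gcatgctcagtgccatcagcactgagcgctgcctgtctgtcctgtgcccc
Mrgpra4, chr7:55236850-55236899: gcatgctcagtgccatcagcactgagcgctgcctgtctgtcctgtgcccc
Mrgpra2b, chr7:54719927-54719976: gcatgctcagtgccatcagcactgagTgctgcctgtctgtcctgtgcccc
Mrgpra9, chr7:54490859-54490908: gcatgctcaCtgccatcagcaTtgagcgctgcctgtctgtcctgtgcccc
Mrgprx1, chr7:55276975-55277024: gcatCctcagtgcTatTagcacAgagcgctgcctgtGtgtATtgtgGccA
Mrgprb4, chr7:55454162-55454211: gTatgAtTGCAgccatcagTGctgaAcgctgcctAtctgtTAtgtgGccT
Mrgprb5, chr7:55423966-55424015: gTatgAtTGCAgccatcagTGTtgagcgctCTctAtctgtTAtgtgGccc
Mrgprd, chr7:152507645-152507694: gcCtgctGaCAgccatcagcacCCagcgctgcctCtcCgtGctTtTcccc

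Mrgpra2b differed from Mrgpra3 in 1 base of this window, Mrgpra9 in 2, Mrgprx1 in 9, Mrgprd in 11, Mrgprb4 in 14 and Mrgprb5 in 15. Of 857 coding windows of Mrgpra3, 81 had an exact copy in another annotated Mrgpr gene. Mrgprb5 and Mrgprb4 were closest in another window, shown because their counts are compared here, with the base that differs in capitals. Of 909 coding windows of Mrgprb5 found once in the genome, 94 came within 2 differences of a window of Mrgprb4, and the median was 7 differences.
Mrgprb5, chr7:55424153-55424202: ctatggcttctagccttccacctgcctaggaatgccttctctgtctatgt
Mrgprb4, chr7:55454349-55454398: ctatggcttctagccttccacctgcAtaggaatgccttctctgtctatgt

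A read with more than 1 equally good place is not counted for a gene, so the share of 50-base exon windows that occur once in the genome limits how much of a gene can be counted. That share was 100% for Mrgprd, Il31ra, Osmr, Nppb, Cysltr2 and Htr1f, 99.2% for Mrgprb5, 98.2% for Mrgprb4 and 88.8% for Mrgpra3. With up to 2 mismatches allowed it was 51.5% for Mrgpra3, 74.8% for Mrgprb4 and 85.1% for Mrgprb5. Of the other Mrgpr genes, Mrgpra9 had 85.8% and Mrgprx1 92.7% by exact match, but Mrgpra2a had 12.4% and Mrgpra2b 14.3%, so counts of these last genes are uncertain. Hrh1 (chr6:114347930-114433290, plus strand) was single-copy over all its windows on the assembled chromosomes, but 82.2% of them also occurred in unplaced sequence of the assembly, which left 17.8%. Whether the authors' alignment index held unplaced sequences is not given in the sources used here.

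**Figure D1:**
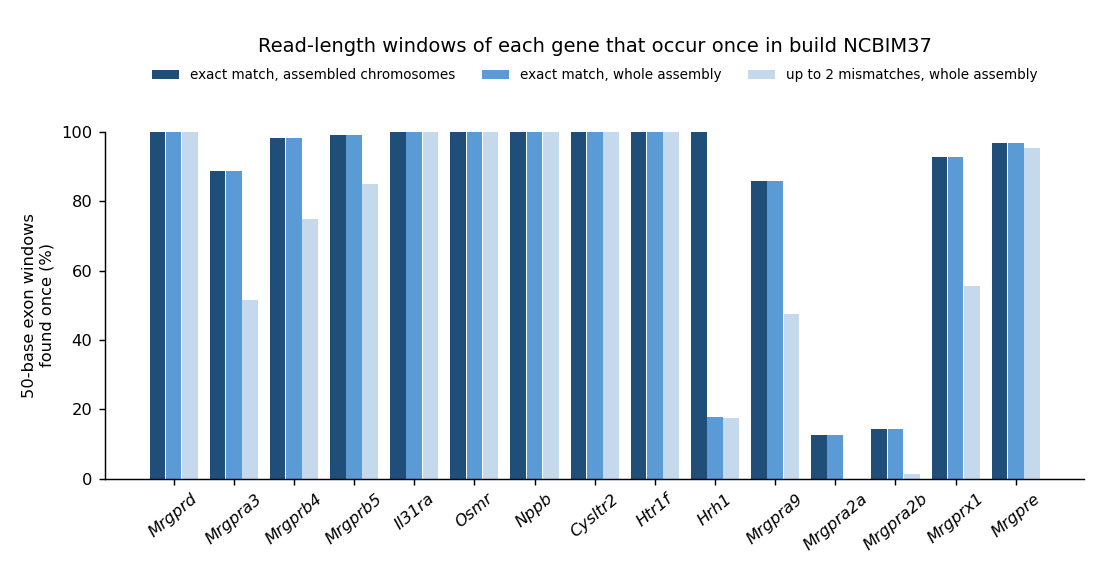
Share of 50-base exon windows (y axis, percent) that occur once in build NCBIM37, for the 10 members and 5 other Mrgpr genes, by exact match on the assembled chromosomes (dark), by exact match in the whole assembly (mid blue) and with up to 2 mismatches (pale). Hrh1 drops from 100% to 17.8% once unplaced sequences are included, and Mrgpra2a and Mrgpra2b stay at 14.3% or below in each.

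The libraries held 4.80 to 7.33 M gene reads (M, 1e6 reads), so 3 reads, taken as the lowest level that can be told from 0, corresponded to 0.409 to 0.625 counts per 1e6 gene reads (CPM). This floor covers counting error only, because reads without molecular identifiers can be PCR copies, whereas the confidence intervals of fold changes carry the spread between libraries. Female replicate 4 stood apart: its counts differed from those of the other females by 30.1 to 44.9 chi-square units per degree of freedom, against at most 12.1 for any other pair of the same sex. In this library the 5843 genes with over 4000 exon bases were low (median deviation -0.36 on the log2 scale) and the 1167 genes under 1500 exon bases were high (0.29). The pan-neuronal markers summed to 22810 to 31620 CPM over the 8 libraries. Markers of satellite glia and Schwann cells summed to 11690 to 15010 CPM in females and 5477 to 11270 CPM in males, with 6 of 15 markers at an unadjusted p under 0.05, all higher in females, and no glial marker was at 0. Fibroblast markers summed to 104.8 to 158.2 CPM in females and 46.0 to 89.9 CPM in males. The 11 mast cell markers summed to 90.1 to 233.0 CPM in females and 176.5 to 199.5 CPM in males, most of it Kit (506 to 1682 reads), with Hdc at 6 to 24 reads, Cpa3 at up to 8 and Mcpt4, Tpsb2, Tpsab1, Mrgprb2 and Fcer1a at 0 reads in every library. Markers of some neuron types also leaned toward one sex, with 0 called after adjustment, and their part in the results that follow was not tested. The 8 markers of myelinated neurons summed to 1010 to 2258 CPM in females and 485.4 to 1125 CPM in males (median log2 fold change 0.69, 3 with an unadjusted p under 0.05, all toward females), and the 7 of peptidergic neurons to 4801 to 6248 CPM in females and 5742 to 8209 CPM in males (median -0.34, 4 with an unadjusted p under 0.05, all toward males). The 9 nonpeptidergic markers, at 1675 to 3490 CPM in females and 3095 to 3799 CPM in males, had a median of -0.25 and 0 with an unadjusted p under 0.05. The 3 markers of C-fibre touch neurons, at 174.6 to 323.6 CPM in females and 137.7 to 333.3 CPM in males, did not lean in this way (median 0.077, 0 with an unadjusted p under 0.05).

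Every member was detected in every library, at levels per length that spanned a wide range. Levels of different genes were compared as CPM per kilobase of exon (RPKM), as means ± SD over 8 libraries. Mrgprd was highest at 201.9 ± 25.4 RPKM, above 97.9% of 12368 genes, followed by Mrgpra3 at 61.7 ± 10.4, Osmr at 26.6 ± 9.17, Nppb at 15.2 ± 5.55 and Il31ra at 8.61 ± 3.42 RPKM. Each of these first 4 steps down held in 8 of 8 libraries (two-sided exact sign-flip permutation test over all sign patterns, p = 0.00781, the smallest this test can give, adjusted over 9 pairs 0.0176). Below them came Mrgprb4 at 7.44 ± 4.76, Cysltr2 at 6.15 ± 3.04, Mrgprb5 at 4.93 ± 1.41, Htr1f at 2.91 ± 0.834 and Hrh1 at 2.35 ± 0.518 RPKM.

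The lower part of that order was not resolved. Il31ra and Mrgprb4 (exact p = 0.359), Mrgprb4 and Cysltr2 (exact p = 0.641), Cysltr2 and Mrgprb5 (exact p = 0.602) and Htr1f and Hrh1 (exact p = 0.258) did not differ beyond their spread. Mrgprb5 was above Htr1f in 7 of 8 libraries (exact p = 0.0234, adjusted 0.0421). Only the ranges of Mrgprd and Mrgpra3, and those of Mrgpra3 and Osmr, did not overlap among these neighbours. Counting only windows that occur once would place Mrgpra3 at 69.5 RPKM, or at 120 with up to 2 mismatches allowed, still below Mrgprd. The same correction would move Hrh1 from last place to 13.2 RPKM if unplaced sequences were indexed, and would leave it at 2.35 if they were not.

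**Figure D2:**
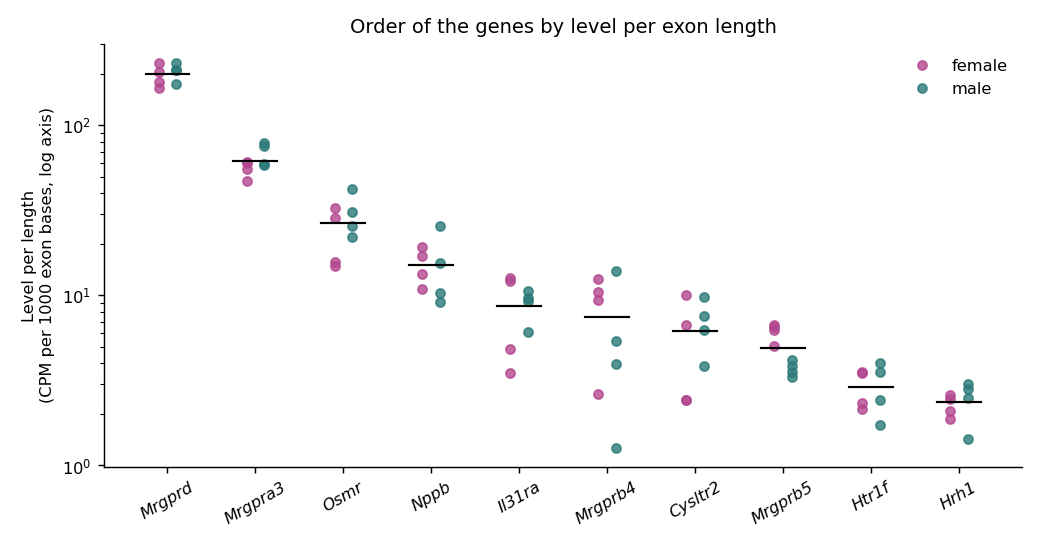
Level of each member as CPM per kilobase of exon (y axis, log scale) in 4 female and 4 male libraries, 1 point per library, with the mean of 8 libraries as a black bar. Mrgprd lies near 201.9 and Mrgpra3 near 61.7 with no overlap, while the genes from Il31ra to Mrgprb5 overlap with their neighbours.

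Between sexes, no member was called. Of the 10 members, all of which passed the expression filter, 0 had an adjusted p under 0.05 in edgeR's quasi-likelihood test, where 0.04% of 12512 genes were called, 0.00799% with the higher level in females and 0.032% in males. One member, Mrgprb5, had an unadjusted p under 0.05 and was higher in females, against 7.06% of the genes tested, 4.6% toward females and 2.45% toward males. Its sex ranges were also the only ones of the 10 that did not overlap, against 5.47% of the genes tested, 2.98% toward females and 2.49% toward males. DESeq2 gave the same counts of 0 and 1, where it called 38 of 17241 genes and gave 1008 an unadjusted p under 0.05. Without female replicate 4, male replicate 2 or male replicate 3, Mrgpra3 also had an unadjusted p under 0.05, and without male replicate 4 Mrgprb4 did, which made 2 members each time. Over all genes, 1447 of 12718, 716 of 12571, 803 of 12743 and 614 of 12575 had one in these settings, in turn. The estimates were lower in females for 8 of 10 members, with a median log2 fold change (female over male) of -0.10, against 0.0089 over all genes tested. This lean did not hold in every setting: 5 of 10 were lower without female replicate 4 (median -0.0011) or without female replicate 3 (0.0023).

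Mrgprb5, a receptor of the cluster on chromosome 7 that lies beside Mrgprb4, read 6.46, 6.94, 5.21 and 6.74 CPM in female replicates 1 to 4 and 3.68, 3.42, 3.96 and 4.29 CPM in male replicates 1 to 4. All 4 females lay above all 4 males, at 6.34 ± 0.778 against 3.84 ± 0.375 CPM (SD, n = 4 each). The log2 fold change was 0.71 (SE 0.20, 95% confidence interval 0.26 to 1.16), with an unadjusted p of 0.00503 and an adjusted p of 0.563 by edgeR, and a two-sided exact permutation p of 0.0286, the smallest that 70 labelings allow. These values rest on 23 to 47 reads per library. Over 16 other settings the estimate stayed between 0.66 and 0.78, the unadjusted p between 0.00358 and 0.0423 and the adjusted p at 0.3315 or above, and with the glial marker score added as covariate it was 0.66 (unadjusted p = 0.0423).

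Mrgprb4, its neighbour, spread more widely between libraries, and the difference between the genes was not tested. It read 10.2, 9.02, 12.1 and 2.53 CPM in females and 1.23, 5.20, 3.80 and 13.5 CPM in males, so that female replicate 4 and male replicate 4 each crossed to the other side. The range from 9 to 91 reads is 10.96-fold in CPM, and its coefficient of variation over 8 libraries, 64%, exceeded that of 99.1% of genes within 2-fold of its level. Counting error alone would give 15.1%. The log2 fold change was 0.50 (SE 0.60, edgeR unadjusted p = 0.425) and ran from 0.15 without male replicate 1 to 1.30 without male replicate 4 (unadjusted p = 0.0431, adjusted p = 0.943). With the glial marker score added as covariate its sign turned (-0.31, unadjusted p = 0.720).

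Mrgprd held most of the family's reads. It read 645.5, 723.8, 518.5 and 559.1 CPM in females and 723.9, 661.3, 656.0 and 546.1 CPM in males, and the sexes overlapped. The log2 fold change was -0.10 (95% confidence interval -0.39 to 0.20, edgeR adjusted p = 0.875), and its coefficient of variation of 12.6% was near the median of 12.7% for genes of like level. Mrgpra3 read 78.8, 71.3, 60.6 and 77.7 CPM in females and 101.6, 75.6, 76.3 and 97.6 CPM in males. Male replicates 1 and 4 were above every female, and the other males were within the female range. Its log2 fold change was -0.30 (95% confidence interval -0.61 to 0.01, edgeR unadjusted p = 0.0598, adjusted p = 0.706). It was -0.09 with the glial marker score added as covariate, a score that cannot be told apart from sex here.

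**Figure D3:**
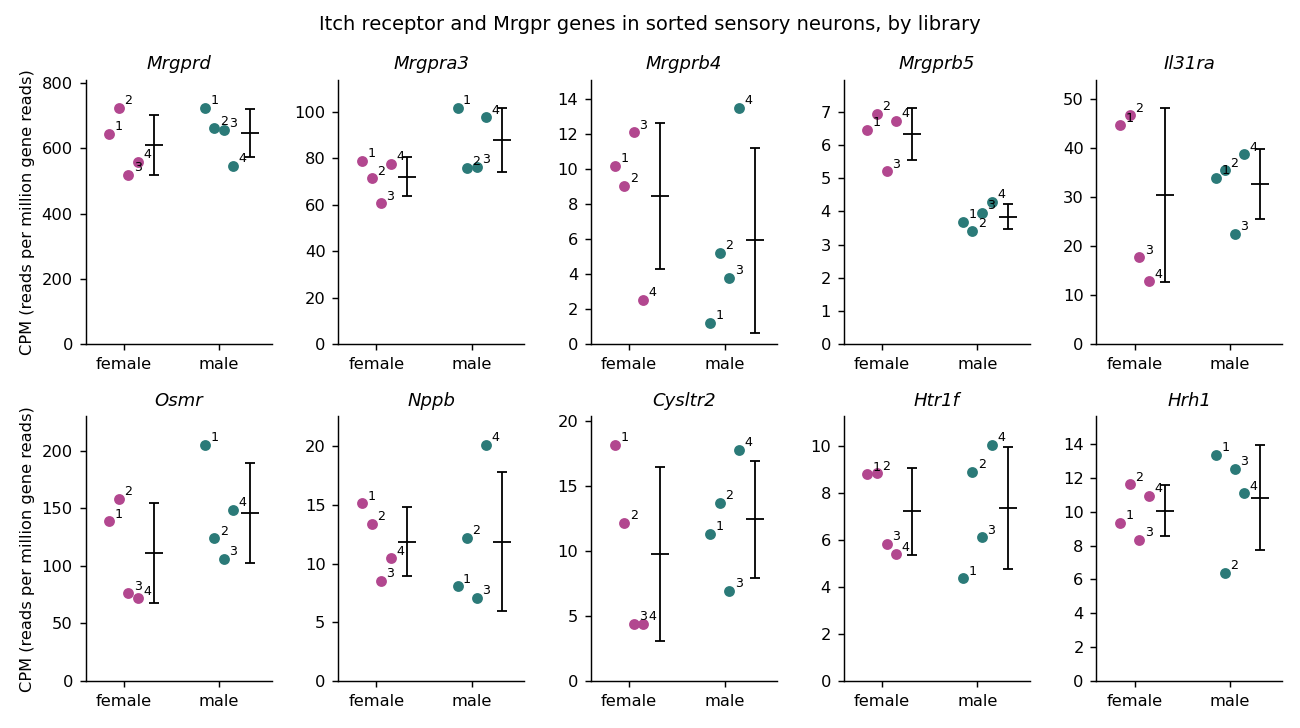
CPM (y axis, linear from 0) of the 10 members in each female and male library, numbered by replicate, with mean and SD (n = 4) beside the points. The sexes are separate for Mrgprb5 alone, while the 2 sexes overlap in the other 9 panels and Mrgprb4 spreads from 1.23 to 13.5 CPM.

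The interleukin 31 receptor chains and Cysltr2 varied more between libraries than between sexes. Il31ra (chr13:113313018-113370870, minus strand) read 44.7, 46.7, 17.7 and 12.8 CPM in females and 33.97, 35.5, 22.5 and 38.8 CPM in males. Females thus held both the highest and the lowest values, and the log2 fold change was -0.11 (95% confidence interval -0.93 to 0.72, edgeR adjusted p = 0.951). Its sign was not stable: it ran from -0.39 without female replicate 2 to 0.15 without female replicate 4. Osmr (chr15:6763577-6824313, minus strand), the chain that Il31ra shares with the oncostatin M receptor, read 138.7, 158.1, 76.0 and 71.9 CPM in females and 205.3, 124.0, 106.2 and 148.9 CPM in males. Its log2 fold change was -0.41 (95% confidence interval -1.03 to 0.22, edgeR adjusted p = 0.785). It was -0.01 with the glial marker score added as covariate and ran from -0.64 without female replicate 2 to -0.19 without male replicate 1, and it was highest in male replicate 1. That library had the lowest summed markers of fibroblasts (46.0 CPM), satellite glia and Schwann cells (5477 CPM), myelinated neurons (485.4 CPM) and macrophages (2.18 CPM) and the highest of peptidergic (8209 CPM) and nonpeptidergic neurons (3799 CPM), and their part in the Osmr level was not tested. Cysltr2 (chr14:73428935-73448921, minus strand) read 18.2, 12.2, 4.38 and 4.38 CPM in females and 11.3, 13.7, 6.94 and 17.8 CPM in males, with a log2 fold change of -0.34 (95% confidence interval -1.32 to 0.64, edgeR adjusted p = 0.867) that ran from -0.84 without female replicate 1 to -0.09 without female replicate 4. All 3 genes were low in female replicates 3 and 4 and, among males, in male replicate 3. Nppb and Htr1f, given below, were also under their means in these libraries, and in male replicate 1 as well.

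The spread of these genes was wide for their level. The coefficient of variation over 8 libraries was 49.3% for Cysltr2, above that of 98.3% of genes within 2-fold of its level, 39.7% for Il31ra (97.3%), 34.5% for Osmr (96.9%) and 36.5% for Nppb (91.8%), where counting error alone would give 3.48% to 11.8%. The other members, Mrgprd, Mrgpra3, Mrgprb5, Htr1f and Hrh1, lay between the 49.5 and 65 percent marks of genes of their level. Among 21 pairs of the 7 members with a mean of at least 50 reads, log2(CPM + 1) of Il31ra and Cysltr2 moved most alike (Pearson r = 0.934, exact permutation p = 0.00139, adjusted 0.0292, and Spearman rho = 0.833, exact permutation p = 0.0154, adjusted 0.321, n = 8). The r was 0.814 without the 2 libraries farthest in Il31ra and 0.937 on deviations from the sex means. The pair of Il31ra and Osmr had r = 0.860 (exact permutation p = 0.0065, adjusted 0.0682) and rho = 0.738 (exact permutation p = 0.0458, adjusted 0.321), but r was 0.485 without the 2 farthest libraries, so this relation rests on them. Osmr and Cysltr2 had r = 0.805 (exact permutation p = 0.0189, adjusted 0.132) and rho = 0.571 (exact permutation p = 0.151, adjusted 0.529), with r = 0.309 without the 2 farthest libraries, and rest on them likewise. Nppb and Cysltr2 had r = 0.705 (exact permutation p = 0.0561, adjusted 0.224) and rho = 0.762 (exact permutation p = 0.0368, adjusted 0.321). Nppb and Il31ra had r = 0.572 (exact permutation p = 0.14, adjusted 0.368) and rho = 0.69 (exact permutation p = 0.0694, adjusted 0.364). Without the 2 farthest libraries these r were 0.632 and 0.745. By Pearson's r 1 of 21 pairs passed the adjustment, and by Spearman's rho 0 passed.

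Depth and gene length were set beside this pattern. Female replicate 3, low in all 3 genes, was the shallowest library at 4.80 M gene reads, whereas female replicate 2, highest in Il31ra, held 5.76 M and female replicate 4, lowest, held 5.94 M. Genes with over 4000 exon bases had a median deviation of -0.36 in female replicate 4 and -0.0026 in female replicate 3. Osmr has 4835 exon bases, but Il31ra has 3665 and Cysltr2 1802, so these medians do not cover those 2 genes. Without female replicate 4 the r of Il31ra and Cysltr2 was 0.919, and that of Il31ra and Osmr was 0.776. The part of depth or of gene length in these differences was not tested.

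**Figure D4:**
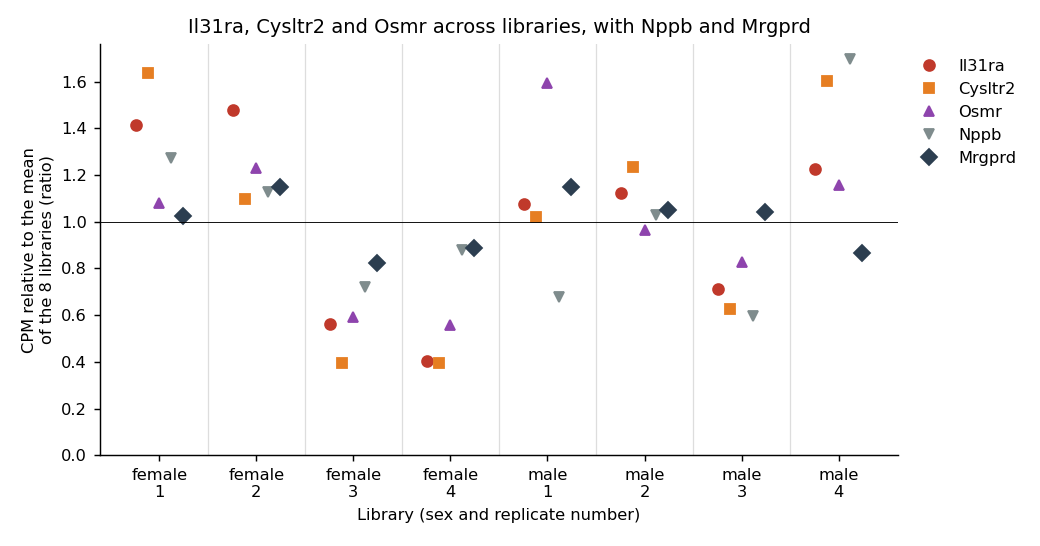
CPM of Il31ra, Cysltr2, Osmr, Nppb and Mrgprd in each library, divided by the gene's mean over 8 libraries (y axis, ratio, linear from 0), with the 4 females on the left and the 4 males on the right. Il31ra, Cysltr2 and Osmr lie below 1 together in female replicates 3 and 4 and male replicate 3. Nppb is also below 1 in these libraries and in male replicate 1. Mrgprd is above 1 in male replicate 3.

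Nppb (chr4:147359897-147361314, plus strand), the peptide of the same neurons, read 15.1, 13.4, 8.54 and 10.4 CPM in females and 8.05, 12.2, 7.10 and 20.1 CPM in males. Its means were 11.9 CPM in both sexes, with a log2 fold change of -0.0056 (95% confidence interval -0.71 to 0.70, edgeR adjusted p = 0.997). Htr1f (chr16:64924555-65105610, minus strand) read 8.80, 8.85, 5.83 and 5.39 CPM in females and 4.37, 8.91, 6.11 and 10.1 CPM in males, with a log2 fold change of -0.03 (95% confidence interval -0.67 to 0.61, edgeR adjusted p = 0.985). Hrh1 read 9.35, 11.6, 8.33 and 10.95 CPM in females and 13.4, 6.39, 12.6 and 11.1 CPM in males, with a log2 fold change of -0.12 (95% confidence interval -0.65 to 0.40, edgeR adjusted p = 0.906). The sexes overlapped in each of these genes, and no difference was detectable within these intervals.

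Of the 20 Mrgpr rows, 9 passed the expression filter, 5 (Mrgprb2, Mrgprb3, Mrgprb8, Mrgprg and Mrgprx2) had 0 reads in all libraries and the other 6 had at most 12 reads in any library. Mrgprd took 69.7% to 78% of all Mrgpr reads in a library, Mrgpra3 7.68% to 12.5% and Mrgpre 6.57% to 11.6%. These shares of reads are not corrected for length. Per length the means were 201.9 RPKM for Mrgprd, 61.7 for Mrgpra3 and 21.15 for Mrgpre. Between sexes, 0 of the 9 rows were called after adjustment and 2 had an unadjusted p under 0.05, Mrgprb5 toward females and Mrgpra9 toward males, against 4.6% and 2.45% of all genes tested, while estimates were lower in females for 7 of 9 (median -0.13, and -0.056 without female replicate 4 or -0.033 without male replicate 1). Mrgpra9 (chr7:54490289-54491281, minus strand) read 3.85, 3.30, 1.67 and 4.55 CPM in females and 9.28, 5.05, 6.28 and 6.66 CPM in males. All 4 males were above all 4 females, at 6.82 ± 1.78 against 3.34 ± 1.23 CPM (SD, n = 4 each). The log2 fold change was -1.02 (SE 0.30, edgeR unadjusted p = 0.00653, adjusted p = 0.608, exact permutation p = 0.0286), on 8 to 68 reads, and it was -0.64 (unadjusted p = 0.114) with the glial marker score added as covariate. Mrgpra9 shares sequence with Mrgpra3, as the first set of windows shows, and had 267 reads in all against 4112 for Mrgpra3. Of 807 coding windows of Mrgpra9 found once in the genome, 80 came within 2 differences of a window of Mrgpra3 (median 8). With up to 2 mismatches allowed, 47.35% of its exon windows occurred once, against 85.1% for Mrgprb5, so the count of Mrgpra9 is uncertain.

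The remaining measured Mrgpr genes overlapped between sexes. Mrgpre, an orphan receptor of the family, read 83.3, 85.2, 81.2 and 47.7 CPM in females and 100.7, 75.3, 75.8 and 86.7 CPM in males (log2 fold change -0.20, edgeR adjusted p = 0.820), and the low female value came from female replicate 4. Mrgprx1, a receptor of the same cluster, read 8.54 to 13.3 CPM in females and 10.4 to 17.9 CPM in males (-0.20, adjusted p = 0.845). Mrgpra2b (-0.05, adjusted p = 0.953) and Mrgpra2a (-0.13, adjusted p = 0.934) carry the uncertain counts described above.

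**Figure D5:**
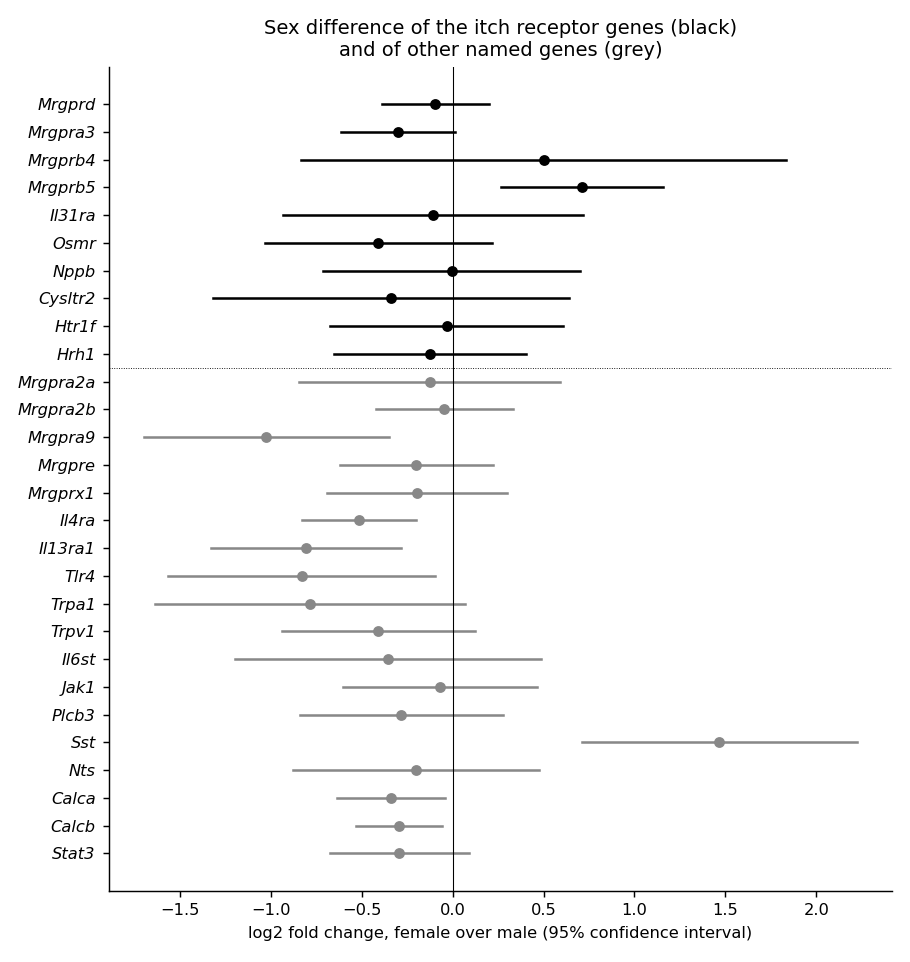
Log2 fold change, female over male (x axis), with 95% confidence intervals from the edgeR fit, for the 10 members (black) and other named genes (grey). Among the members the interval of Mrgprb5 alone, 0.26 to 1.16, leaves out 0, and among the other genes Sst lies highest at 1.47.

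Other receptors for pruritogens were read as a list of 31 genes, of which 22 passed the filter. None was called after adjustment, and 4 had an unadjusted p under 0.05, all lower in females, where 2.45% of all genes had one in that direction. Il4ra, the receptor for interleukins 4 and 13, read 71.4, 75.7, 71.9 and 59.8 CPM in females and 122.7, 90.6, 92.5 and 88.6 CPM in males, with no overlap (log2 fold change -0.52, SE 0.14, edgeR unadjusted p = 0.00424, adjusted p = 0.551). Il13ra1, its partner chain, read 16.6, 15.1, 14.0 and 7.58 CPM in females and 27.8, 18.4, 22.6 and 23.5 CPM in males, again with no overlap (-0.81, SE 0.24, unadjusted p = 0.00623, adjusted p = 0.601). With the glial marker score added as covariate these estimates were -0.30 (unadjusted p = 0.117) and -0.62 (unadjusted p = 0.0791). The others were Tlr4, a toll-like receptor (-0.83, unadjusted p = 0.0302), and the serotonin receptor Htr1b (-0.52, unadjusted p = 0.0480), which was named after its values were seen. The median of the list was -0.16, and the count was 2 without male replicate 1 or male replicate 4. With the glial marker score added as covariate the count was 0, where 298 of 12512 genes had such a p, and Tlr4 was at -0.40 (edgeR unadjusted p = 0.367). The direction of the list's genes did not hold in every setting. Without female replicate 4, the library that stood apart, 2 genes had an unadjusted p under 0.05 toward females and 2 toward males (median -0.042). Over all 12718 genes tested in that setting, 723 had one toward females and 724 toward males. Without male replicate 2 there were 1 and 3, against 504 and 212 of 12571 genes. Hrh4, Il7r and Cysltr1 had 0 reads in all libraries.

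Of 17 genes that carry the signal onward from these receptors, 16 passed the filter, 0 were called by edgeR or DESeq2 and 0 had an unadjusted p under 0.05 by edgeR, with a median of -0.19. Without female replicate 4, 2 had an unadjusted p under 0.05, and so had 1447 of all 12718 genes tested in that setting, where the median of the list was -0.058. Trpa1, the channel opened downstream of Mrgpra3, read 117.0, 126.9, 86.2 and 24.3 CPM in females and 192.5, 142.1, 141.0 and 129.9 CPM in males. These ranges did not overlap, but the log2 fold change of -0.79 had an SE of 0.39 (edgeR unadjusted p = 0.0674, adjusted p = 0.712), and without female replicate 4 it was -0.48 (unadjusted p = 0.0129, adjusted p = 0.341). Trpv1, the capsaicin receptor, was at 224.1 ± 63.3 CPM in females and 294.4 ± 82.0 CPM in males (SD, n = 4 each, edgeR adjusted p = 0.758). Its log2 fold change was -0.41, and 0.0048 with the glial marker score added as covariate. Il6st, a cytokine receptor chain that pairs with Osmr, read 353.5, 304.6, 264.2 and 64.4 CPM in females and 299.9 to 330.7 CPM in males. Jak1, a kinase of the interleukin 31 receptor, and Plcb3, a phospholipase used by itch receptors, were also lowest in female replicate 4, at 167.3 and 391.7 CPM against at least 325.5 and 778.9 CPM in every other library. Stat3, the factor that acts downstream of these kinases, had a log2 fold change of -0.29 (unadjusted p = 0.121), and of -0.13 (unadjusted p = 0.0874) without female replicate 4.

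Peptides of itch neurons and their spinal receptors formed a list of 14 genes, of which 8 passed the filter, 0 were called by edgeR and 1 (Sst) by DESeq2, and by edgeR 1 had an unadjusted p under 0.05 with a higher level in females and 3 with a lower one (median -0.24), against 4.6% and 2.45% of all genes tested. These 4 became 1 without male replicate 1, and 2 without female replicate 3 or male replicate 4. With the glial marker score added as covariate they became 1 (Sst), with a list median of -0.041, where 298 of 12512 genes had such a p. Sst, the somatostatin gene, which marks the Nppb neurons, read 16.8, 14.1, 7.71 and 15.7 CPM in females and 4.50, 5.94, 1.98 and 6.95 CPM in males. Every female was above every male, at 13.6 ± 4.05 against 4.84 ± 2.16 CPM (SD, n = 4 each), with a log2 fold change of 1.47 (SE 0.34, edgeR unadjusted p = 0.00138, adjusted p = 0.410, exact permutation p = 0.0286). DESeq2, which called 38 of 17241 genes over all where edgeR called 5 of 12512, gave Sst an adjusted p of 0.0280. Over all 16 other settings the adjusted p of Sst ran from 0.0280 to 0.9995 and its estimate from 1.21 to 1.68. Nts, the neurotensin gene that is found in the same neurons, read 8.66, 7.46, 4.17 and 4.21 CPM in females and 7.37, 8.17, 4.13 and 8.43 CPM in males (log2 fold change -0.20, edgeR adjusted p = 0.885). Calcb (-0.30, unadjusted p = 0.0198) and Calca (-0.34, unadjusted p = 0.0282), the genes of calcitonin gene-related peptide, and Tac1 (-0.50, unadjusted p = 0.0393), the substance P gene, named after its values were seen, were the 3 lower in females, and all 3 are also on the list of peptidergic markers given above. With the glial marker score added as covariate, Calca was at -0.12 (edgeR unadjusted p = 0.4645) and Calcb at -0.17 (unadjusted p = 0.246). Grp, the gastrin-releasing peptide gene, had at most 2 reads in a library.

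Genes whose log2(CPM + 1) followed a member most closely over the 8 libraries were found among 9655 other genes with a mean of at least 50 reads, as a description. They were Rnf11 (r = 0.953) and Zfp382 (0.945) for Mrgprd, Calca (0.967) and Celf4 (0.958) for Mrgpra3, and Nr2c1 (0.976) and Ccdc50 (0.957) for Il31ra. Osmr was followed by Mal2 (0.989) and Mcl1 (0.978), Nppb by Marcks (0.941) and Tob1 (0.904), Cysltr2 by Cnot2 (0.975) and Nr2c1 (0.970), and Hrh1 by Marveld1 (0.958) and Rala (0.935). Nr2c1 stood in the list of both Il31ra and Cysltr2. The 8 points share their libraries and depth, and no test was made of these values.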

How the data were processed

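Raw HTSeq read counts per gene, as deposited by the authors, were used with no prior normalization, 1 table per library. The authors aligned 50-base single reads to mm9 with TopHat2, and the tool versions, annotation release and strand option are not given in the sources used here. Summary lines of the counting program were left out of the totals. Members and gene lists were chosen with earlier results of these data known. Counts were tested with edgeR 4.0.16 in R 4.3.3 (quasi-likelihood test, TMM factors, default filter, sex as the only term, Benjamini-Hochberg adjustment), and the call threshold was an adjusted p under 0.05. Xist, Tsix and 8 genes of the Y chromosome entered the fit and no count. DESeq2 1.42.0, other scalings and filters, a glial marker covariate and leaving out each library were the alternatives. The F statistic gave the SE of each estimate. Single genes were also compared by exact permutation of library labels. Exon lengths came from GENCODE M1 on NCBIM37, in which 50-base windows were searched on both strands, and genes were compared per length after adding 0.1 to the RPKM before taking log2. Genes were named by a fixed rule: all members, other Mrgpr rows with a mean of at least 10 reads, and in each pathway list the 3 smallest p-values plus Trpa1, Trpv1, Il6st, Jak1, Plcb3, Sst and Nts. In simulated counts of 12404 genes, the female against male test recovered 60.5% of 200 genes changed by 2-fold with 3 false calls, and 99.5% of those changed by 4-fold in counts of 12399 genes, with 10 false calls. Python 3.11.15, pandas 2.3.3, scipy 1.17.1 and matplotlib 3.10.9 were used.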

Additional observations from a re-analysis of the deposited data

Results flagged for a closer look

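A library far from the other 3 of its sex was found in 5 of 86 groups of 4 libraries, where chance gives about 1 in 20 (4.3 groups). Mrgpre was at 47.7 CPM in female replicate 4, against 81.2 to 85.2 CPM in the other females. Il4ra was at 122.7 CPM in male replicate 1, against 88.6 to 92.5 CPM in the other males. Markers of satellite glia and Schwann cells summed to 15010 CPM in female replicate 4, against 11690 to 11830 CPM in the other females, and endothelial markers to 88.3 CPM, against 53.1 to 58.1 CPM. Macrophage markers summed to 2.18 CPM in male replicate 1, against 7.25 to 7.93 CPM in the other males. None of the 10 members had such a library.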

How the results depend on the processing

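Over all genes, 5 were called by edgeR, 2 when scaled to pan-neuronal genes, 0 with a glial marker covariate and 38 with DESeq2. Leaving out 1 library gave 1 (without male replicate 4) to 78 calls (without female replicate 1), with 2 without female replicate 2 and 3 without male replicate 1 or 2. At an unadjusted p under 0.05 there were 883 genes, 298 with the glial covariate, and 581 (without male replicate 1) to 1447 (without female replicate 4) when 1 library was left out. None of the 10 members was called under any of the 16 alternatives, and 1 to 2 had an unadjusted p under 0.05 when 1 library was left out.

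Deviations from the sex means in same-numbered libraries had correlations of 0.0939, -0.109, 0.144 and 0.00465. Differently numbered libraries were not compared in this way, so these values cannot show whether the numbers pair the samples. With the replicate number as a block, edgeR called 1 gene over all and 0 members. An unadjusted p under 0.05 went to 2 members (Mrgprb5 and Mrgpra3), 1 itch transduction gene and 860 of 12512 genes over all. The estimate for Nppb was then 0.067.

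Unadjusted counts in the lists moved too. Pruritogen receptors had 4, 2 when scaled to pan-neuronal genes, 0 with the glial covariate and 2 to 4 with 1 library left out, all lower in females except 2 without female replicate 4 and 1 without male replicate 2. Itch transduction genes had 0, 1 without the filter or with DESeq2, and 0 to 2 with 1 library left out. Itch peptides had 4, 1 with the glial covariate and 1 to 5 with 1 library left out. Mrgpr rows had 2, 1 with the glial covariate, 3 with the replicate block and 2 to 3 with 1 library left out. With 1 library left out, list medians ran from -0.37 to -0.042 for pruritogen receptors, -0.28 to -0.058 for itch transduction, -0.35 to -0.13 for itch peptides and -0.26 to -0.033 for Mrgpr rows, and 5 to 8 of the 10 members were lower in females.

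Some estimates changed sign. With the glial covariate these were Mrgprb4 (0.50 to -0.31), Hrh1 (-0.12 to 0.032), Mrgprx1 (-0.20 to 0.22) and Trpv1 (-0.41 to 0.0048), and with library size alone Nppb (0.0083). With 1 library left out, Il31ra ran from -0.39 to 0.15, Nppb from -0.19 to 0.37, Htr1f from -0.22 to 0.15, Hrh1 from -0.31 to 0.00014, Mrgpra2a from -0.31 to 0.17, Mrgpra2b from -0.12 to 0.020, Mrgprx1 from -0.29 to 0.025 and Jak1 from -0.18 to 0.16. The difference in mean CPM of Nppb, 0.0062, became -0.10 with TMM scaling (exact p = 0.971), and that of Htr1f became 0.0029 on the log2(CPM + 1) scale (exact p = 1.0). Sst passed the adjustment with DESeq2 alone.

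Per length, Hrh1 moved from 2.35 to 13.2 RPKM over windows found once, and to 13.5 RPKM with up to 2 mismatches, where Mrgpra3 moved to 120 RPKM. The mismatch setting and the setting without unplaced sequences were chosen after seeing the data. The cause of these moves was not tested, apart from the length of single-copy sequence that the last settings change. Among the 10 members, Mrgprb5 (23 to 47 reads) and Mrgprb4 (9 to 91 reads) had the fewest reads.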
